A study of Mus musculus with 2 samples.

Results

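C1q macrophages are described here from single-cell RNA-seq of mouse femur, as the cells that carried the transcripts of the complement C1q chains together with *Csf1r*, the gene of the receptor for macrophage colony-stimulating factor. Cells were chosen on measured values. A cell was taken when it had at least 500 detected genes, at most 10% mitochondrial unique molecular identifiers (UMIs), at least 5 UMIs of *C1qa*, *C1qb* and *C1qc* summed, at least 1 UMI of *Csf1r*, less than 3% of its UMIs from *S100a8* and *S100a9*, and at most 1 UMI of *Cd79a* and *Cd79b*. This gave 119 of 4502 analysed cells, 21 of 1207 (1.74%, 1.08 to 2.65%) from intact bone and muscle and 98 of 3295 (2.97%, 2.42 to 3.61%) from fracture callus. Intervals here and below are exact, at 95%, and cover counting error only.

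The cells came from *Clec3b*.creERT2 mice with the Ai14.R26.tdTomato reporter, in which tamoxifen turns on the red fluorescent protein tdTomato for good in cells that use the *Clec3b* promoter. Tamoxifen preceded surgery by 2 weeks, the mice were 6 weeks old at surgery, and tissue was taken 3 weeks after it. The intact group was femoral diaphysis with the muscle around it, without a fracture, and the callus group was the fractured femur's callus. Specimens came from 3 littermate mice, and the sources do not say whether both groups came from the same animals. They were pooled within each group, digested with collagenase, sorted for tdTomato and loaded on the 10x Chromium 3′ system, so each group is 1 library, mice cannot be told apart and no test between the groups is possible. The intact library held 1872 barcodes and 12112002 UMIs and the callus library 3987 and 36714322. The macrophages held 103000 of these UMIs in the intact library, with a lowest, median and highest cell of 1589, 4488 and 9938 UMIs, and 710411 in the callus, with 916, 5497.5 and 61260.

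3 properties of the libraries bear on what follows. *Clec3b* itself held 0 UMIs in the macrophages of either library, which after drawing 2000 UMIs from each cell allows up to 15% of 20 intact and 3.37% of 89 callus cells with a UMI when a count of 0 is set to 3 (16.8% and 4.06% by the exact interval), and tdTomato was not analysed here. The study set blood-lineage cells of these libraries aside as carry-over of the sort, and the macrophages are not taken here as *Clec3b*-lineage cells. The mice are described as male, yet *Xist*, a noncoding RNA that silences an X chromosome in females, had a UMI in 17 of 21 intact (80.95%) and 87 of 98 callus macrophages (88.78%), and the 4 Y-linked genes counted were at 0 in both. The libraries shared 1 cell barcode, which did not belong to a macrophage.

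Tissue macrophages take up dying cells and debris, recycle iron and lipid, present antigen and release factors that act on neighbouring cells, and C1q, the recognition part of the classical complement pathway, is made largely by them. A resident population that lies along vessels in many tissues is known by *Lyve1*, *Folr2* and *Cd163*. A further state known from fat, injured muscle and other lipid-laden tissue carries *Trem2*, *Spp1*, *Gpnmb* and lipid-handling genes. In bone, macrophages are neighbours and relatives of osteoclasts, and after fracture they are known to be needed for callus formation.

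*C1qb* lies on chromosome 4 next to *C1qc* and *C1qa*, at 136880129 to 136886187 on the minus strand of GRCm38, *Folr2* on chromosome 7 at 101839988 to 101857194 on the minus strand, and *Spp1* on chromosome 5 at 104435118 to 104441050 on the plus strand. They stand for the identity, the resident programme and the lipid-associated programme that organise the results, and the bases before their start sites are printed for that reason, 5′ to 3′ on the gene's strand, from RefSeq's GRCm38.p6. The first covers chr4:136886201-136886450 (minus strand), the second chr7:101857195-101857440 (minus strand) and the third chr5:104434861-104435110 (plus strand).
C1qb: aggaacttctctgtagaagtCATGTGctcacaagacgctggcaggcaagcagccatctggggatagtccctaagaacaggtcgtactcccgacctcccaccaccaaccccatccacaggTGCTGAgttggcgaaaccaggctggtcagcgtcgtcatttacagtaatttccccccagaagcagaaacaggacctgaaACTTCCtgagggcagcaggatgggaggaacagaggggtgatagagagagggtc
Folr2: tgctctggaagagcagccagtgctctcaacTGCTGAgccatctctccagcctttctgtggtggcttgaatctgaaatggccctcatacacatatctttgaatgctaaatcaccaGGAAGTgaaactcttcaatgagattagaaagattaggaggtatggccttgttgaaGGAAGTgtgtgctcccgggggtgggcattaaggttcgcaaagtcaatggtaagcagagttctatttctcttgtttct
Spp1: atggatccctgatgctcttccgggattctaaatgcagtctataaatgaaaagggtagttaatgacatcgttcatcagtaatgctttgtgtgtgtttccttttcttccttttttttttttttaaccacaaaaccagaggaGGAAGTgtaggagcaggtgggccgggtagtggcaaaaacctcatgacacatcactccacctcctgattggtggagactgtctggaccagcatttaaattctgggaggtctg
Capitals mark matches, on either strand, to GGAAGT, a core read by ETS factors such as PU.1, to TGCTGA, the half-site of MAF factors, and to CATGTG, an E-box read by the MITF and TFE family, all factors that macrophages are known to use. The motifs did not overlap each other. The *C1qb* window held the E-box at −230, the MAF half-site at −131 and the ETS core, on the reverse strand, at −53 from the start. The *Folr2* window held the MAF half-site at −220 and the ETS core at −136 and −81, and the *Spp1* window held only the ETS core, at −111. Of 32851 windows before the starts of mouse genes, 19.7% held the ETS core, 16.1% the MAF half-site and 12.3% the E-box, so such matches are common, and they are given as a description of these letters. A window could be printed for 6 of the 8 genes looked for.

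The transcripts of factors that read these motifs were themselves present. *Spi1*, the gene of PU.1, was at 204 UMIs per 1000000 summed macrophage UMIs (CPM) in the intact library and 319.5 in the callus. *Maf* was at 922 and 546 CPM, a log2 ratio of callus over intact of −0.76. *Mitf* held 8 and 36 UMIs and *Tfeb* 2 and 15, too few for a ratio to be counted.

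The C1q values that chose the cells are given as a description. Among cells that passed every other criterion, 49 intact and 400 callus cells had 0 C1q UMIs, 1 and 22 had 1, 0 and 6 had 2, 1 and 5 had 3 or 4, 0 and 3 had 5 or 6, and 21 and 87 had at least 10. The remaining callus cells, 1 at 7 UMIs, 3 at 8 and 4 at 9, lay between. The median was 42 C1q UMIs per cell in the intact library (13 to 125) and 35 in the callus (5 to 225). The limit on *Csf1r* was closer to the cells, since 1 intact and 20 callus macrophages had exactly 1 *Csf1r* UMI, and 6 and 23 further cells failed on *Csf1r* alone.

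The label was checked on *Adgre1*, the gene of the macrophage antigen F4/80, which the rule did not use. *Adgre1* (chromosome 17, 57358691 to 57483527, plus strand) held 22 UMIs in 11 of 21 intact cells, or 214 CPM (134 to 323), and 207 UMIs in 72 of 98 callus cells, or 291 CPM (253 to 334). Over all cells these levels were within counting error of each other, at a log2 ratio of callus over intact of 0.45 (−0.19 to 1.15), and the ratio was 0.80 with each cell weighted equally. After thinning to 2000 UMIs per cell, 35.0% of 20 and 49.4% of 89 macrophages carried *Adgre1*, against 0% of 252 and 0.339% of 590 B-lineage cells, which should lack it and whose median depths were 2909 and 3373.5 UMIs.

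Of the 20 genes of a macrophage identity list, 18 had at least 100 UMIs over both libraries, the minimum for a ratio to be counted here, and all 20 were present in both libraries. *Apoe*, a lipid carrier that macrophages secrete, was at 8709 CPM in the intact and 10964 in the callus macrophages. *Lyz2*, the lysozyme of phagocytes, was at 9777 and 13243 CPM. The cells therefore carried the name's markers in both libraries, although *Siglec1* (2 and 10 UMIs) and *Timd4* (4 and 1 UMIs), known from marrow and other resident macrophages, were near 0.

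Next to the other myeloid cells of the callus, the macrophages were higher for genes that no selection rule had used. Monocytes (363 cells, chosen on *Ly6c2* and *Ccr2*) and class II dendritic cells (46 cells, chosen on class II genes and *Flt3*) were both limited to 1 C1q UMI. *Ms4a7*, a membrane protein gene of macrophages, was at 397 CPM in the macrophages, 3.85 in monocytes and 2.44 in dendritic cells. *Maf* was at 546, 19.6 and 7.32 CPM, and *Apoe* at 10964, 459 and 940. *Pf4*, a chemokine gene that macrophages share with platelets, was at 1774, 1.73 and 34.2 CPM.

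Other genes were shared among the 3 types. *Lyz2* was at 13243 CPM in macrophages, 10526 in monocytes and 4595 in dendritic cells, and *Fcer1g*, the signalling chain of Fc receptors, at 2327, 1755 and 1646. The macrophages also carried *Cd74*, the class II invariant chain, at 11250 CPM against 612 in monocytes, while the dendritic cells, chosen on class II genes, had 21961. *Ly6c2* was at 170 CPM, but 113 of its 121 callus UMIs (93.4%) were in 1 cell. With 1 library, none of these differences has a replicate, and the monocytes were deeper (median 9117 UMIs).

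**Figure D1:**
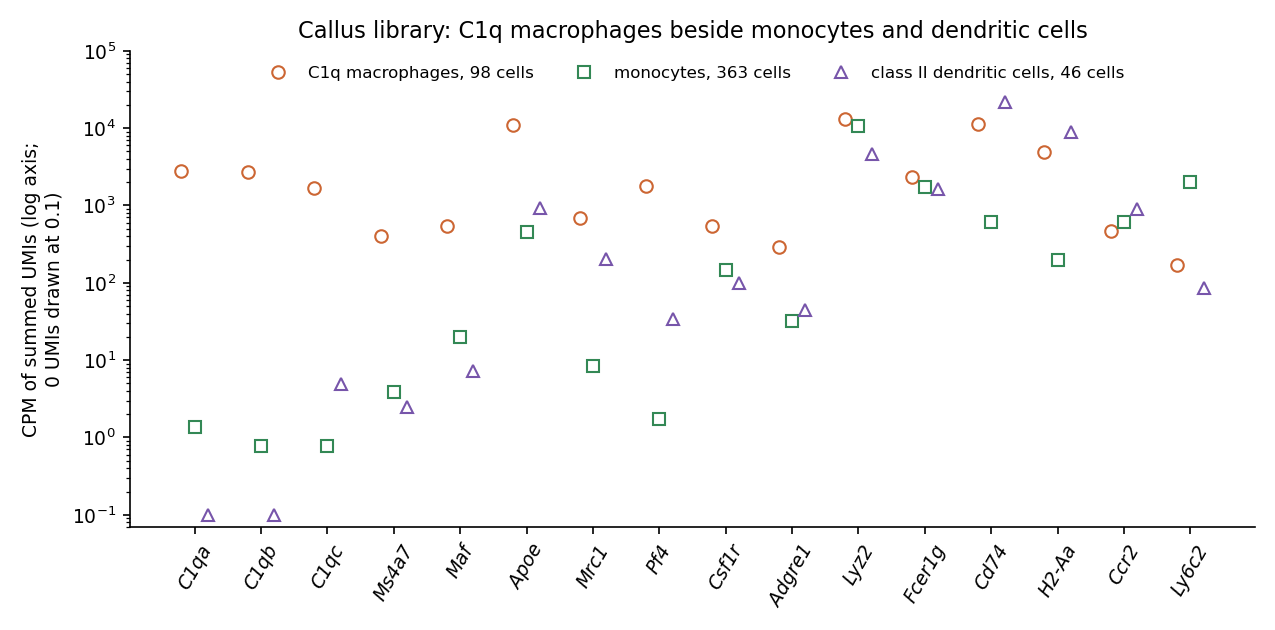
Levels of 16 genes in the callus library as CPM of summed UMIs (log axis), in C1q macrophages (98 cells, circles), monocytes (363 cells, squares) and class II dendritic cells (46 cells, triangles), with genes at 0 UMIs drawn at the bottom of the axis. *Ms4a7*, *Maf* and *Apoe* sit highest in macrophages (397, 546 and 10964 CPM), *Lyz2* and *Fcer1g* lie close together in all 3, and the dendritic cells lead on *Cd74*.

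Against all other analysed cells of the same library, the genes with the highest ratios in macrophages, taking the lower of the 2 libraries, were led by *Folr2* (484-fold), the C1q genes used by the rule (193- to 213-fold), *Mmp12* (130-fold), *Cbr2* (125-fold), *Fxyd2* (118-fold), *Pf4* (110-fold), *Ms4a7* (108-fold) and *C3ar1* (98.2-fold). *Lyve1*, *Fcna*, *Mrc1* and *Stab1* followed, at 93.3-, 69.95-, 59.4- and 47.3-fold. *Folr2*, a folate receptor gene, and *Cbr2*, a carbonyl reductase gene, were thus among the highest although neither was in the rule. *Mmp12*, a macrophage elastase gene, was in 1 intact and 7 callus cells, and *Mucl1*, also among the first 15, held all 364 intact UMIs in 1 cell and 1 UMI in the callus. For *Fxyd2*, 1 cell in each library held 48.8% of the intact and 39.5% of the callus UMIs.

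The design asks how these cells differ between callus and intact tissue. Of 1222 genes counted, 106 (8.67%) were at least 2-fold higher in callus macrophages and 72 (5.89%) at least 2-fold lower, with a median log2 ratio of 0.07. 2 groups of macrophage genes differed in opposite directions. Genes of perivascular resident macrophages were lower in the callus, with 11 of 16 counted genes at least 2-fold lower, 0 higher and a median of −1.18. Genes of lipid-associated macrophages were higher, with 9 of 12 at least 2-fold higher, 0 lower and a median of 1.24. The counts depended on how cells were weighted. With each cell weighted equally, 6 resident genes were lower and 1 higher (median −0.73), and 6 lipid-associated genes were higher and 1 lower (median 1.19), beside 96 higher and 48 lower of all genes. Without the callus cell with most *Spp1* UMIs, 5 of 11 lipid-associated genes were higher and 1 lower, with a median of 0.80.

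**Figure D2:**
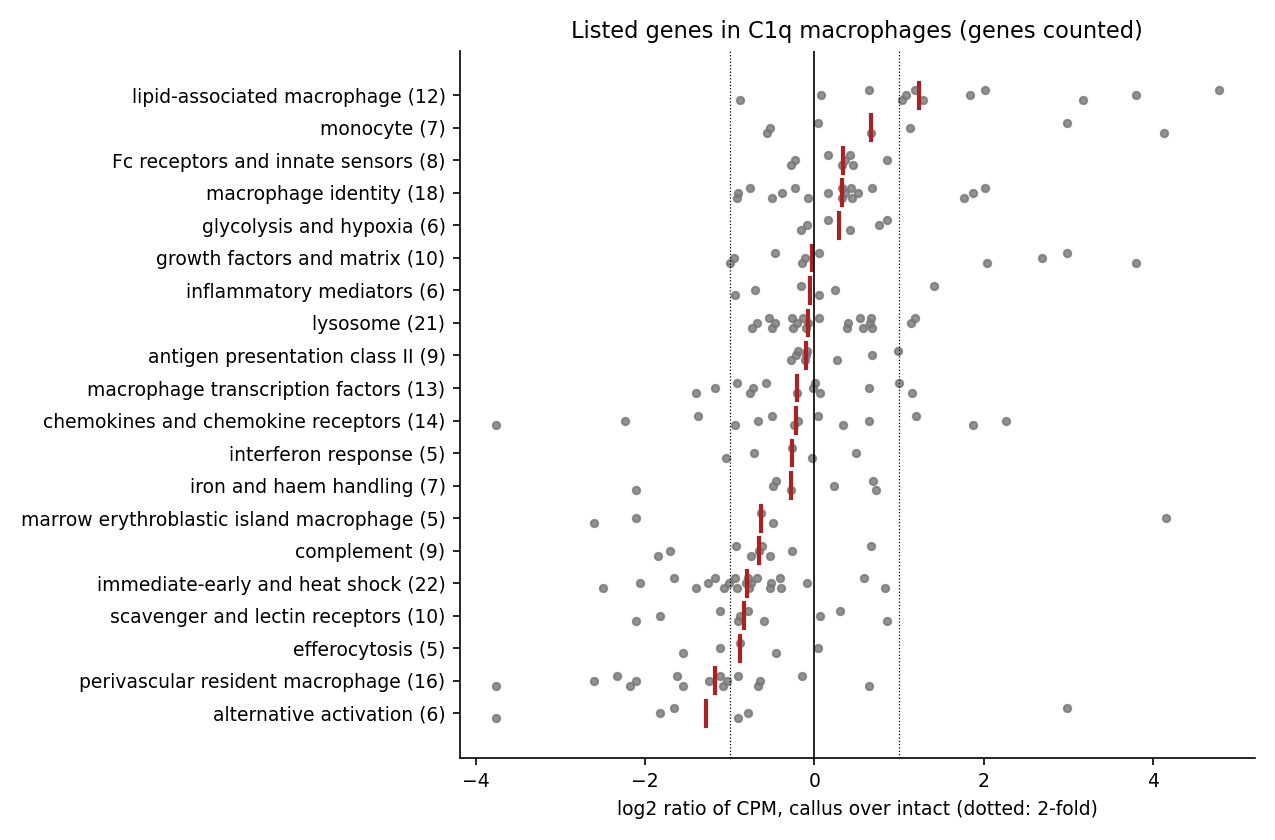
Log2 ratio of CPM, callus over intact, of each counted gene (points, at least 100 UMIs over both libraries) of 20 gene lists in C1q macrophages, with the list median as a bar, the number of genes counted in brackets and dotted lines at 2-fold. The lipid-associated list lies furthest to the right (median 1.24), and the alternative activation and perivascular resident lists furthest to the left (medians −1.28 and −1.18).

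Which cells these are differed between the libraries, and this stands beside every comparison between them. The 119 cells were clustered without regard to library into 3 groups. A cluster of 53 cells led by *Ednrb*, *Gas6* and *Fcna*, called the *Lyve1* cluster below because it held most *Lyve1*, took 16 of 21 intact cells (76.2%) and 37 of 98 callus cells (37.8%). A cluster of 22 cells led by *Fn1*, *Tnip3* and *Lyz1* took 3 (14.3%) and 19 (19.4%). A cluster of 44 cells led by *C3*, *S100a8* and *Stmn1* took 2 (9.52%) and 42 (42.9%), and 88.2% of its *S100a8* was in 1 cell. So most intact cells were in the *Lyve1* cluster, while the callus cells were spread over all 3, and a ratio over all cells mixes the makeup of the group with the level within a cluster.

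2 callus cells held large parts of single genes, and values without them are given below. One held 61260 UMIs, 8.62% of those of all callus macrophages, with 7 C1q UMIs, 6 of *Csf1r*, 0 of *Adgre1* and 20 of *Apoe*. It also held 648 of the 660 callus UMIs of *Elane* and 495 of the 499 of *Mpo*, granule proteases and peroxidase of neutrophil precursors. The other held 19921 UMIs, 55 of C1q, 150 of *Apoe* and 124 of the 289 of *Spp1*. The next deep callus cells held 30953 and 19815 UMIs, the latter with the second highest share of lipid-associated UMIs (304 per 10000). Doublets cannot be taken as removed, since Scrublet called only 7 of 4502 cells (0.155%).

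The resident genes were lower in the callus as a group. *Lyve1*, a hyaluronan receptor gene (chromosome 7, 110850607 to 110863239, minus strand), held 49 UMIs in 10 intact cells, or 476 CPM (352 to 629), and 75 UMIs in 21 callus cells, or 106 CPM (83.0 to 132). Its log2 ratio was −2.17 (−2.71 to −1.62). The CPM intervals of the libraries do not overlap. After thinning 40.0% of intact cells (19.1 to 63.9%) and 14.6% of callus cells (8.01 to 23.7%) carried it, with intervals that overlap, against 0% and 0.169% of B-lineage cells. Unthinned, the shares were 47.6% and 21.4%.

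*Folr2* was at 718 CPM (564 to 902) in 16 of 21 intact cells and at 234 (199.5 to 272) in 46 of 98 callus cells, a log2 ratio of −1.62 (−2.02 to −1.21). *Cd163*, the receptor for haemoglobin bound to haptoglobin, was at 388 and 90.1 CPM (−2.11) and *Cbr2* at 524 and 104 CPM (−2.33). *Gas6*, a ligand that bridges dying cells to phagocytes, was at 515 and 176 CPM (−1.55). *Fcna*, a ficolin of the lectin pathway of complement, was at 631 and 104 (−2.60), with 49.2% of its intact UMIs in 1 cell. *F13a1*, the gene of a clotting factor chain, was at 1534 and 646 (−1.25). With each cell weighted equally, *F13a1* (−0.52) and *Gas6* (−0.71) were within 2-fold, while *Lyve1* (−1.49), *Folr2* (−1.07), *Cd163* (−1.39), *Cbr2* (−1.63) and *Fcna* (−1.71) were still past it.

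The lowest ratio of the list was that of *Ccl24*, an eosinophil-attracting chemokine, at 951 CPM (772 to 1160) in the intact and 70.4 (52.2 to 92.8) in the callus macrophages, a log2 ratio of −3.76 (−4.28 to −3.25). It was carried by 19 of 21 and 26 of 98 cells, and after thinning by 85.0% and 14.6%, with 0% in B-lineage cells of either library. *Stab1*, *Pltp* and *Wfdc17* were also past 2-fold, at −1.11, −1.07 and −1.03, but not with each cell weighted equally (−0.74, −0.86 and −0.43). The counted genes that were not past 2-fold were *Mrc1* (−0.90), *Pf4* (−0.66), *Selenop* (−0.64), *Igf1* (−0.15) and *Ccl8* (0.65, −0.07 to 1.46). *Ccl8* was at 2.14 with each cell weighted equally.

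Summed over all 20 genes, the resident list was at 18427 CPM in the intact library and 8620 in the callus. Per cell, its UMIs per 10000 ranged from 25.2 to 446 with a median of 196 in the intact library, and from 6.0 to 414 with a median of 97.0 in the callus. The ranges of the libraries overlapped, and the intact median was the higher. In the *Lyve1* cluster alone the medians were 221 in the intact and 231 in the callus cells. That sum rested largely on *Selenop*, a selenium carrier (4589 and 6358 CPM in the cluster), and *Pf4* (3434 and 4162). Both were higher in its callus cells, while *Cbr2* (693 and 354), *Fcna* (938 and 367) and *Cd163* (534 and 288) were lower. All 65 intact *Fcna* UMIs were in this cluster, and 1 cell held 32 of them (49.2%).

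The lipid-associated genes were higher in the callus. *Trem2*, a lipid-sensing receptor gene (chromosome 17, 48346401 to 48354147, plus strand), held 10 UMIs in 6 intact cells, or 97.1 CPM (46.6 to 178.5), and 280 UMIs in 59 callus cells, or 394 CPM (349 to 443). Its log2 ratio was 2.02 (1.12 to 3.10). After thinning, 10.0% of intact and 43.8% of callus macrophages carried it, with 0% and 0.169% in B-lineage cells, and unthinned 28.6% and 60.2%.

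*Spp1*, the gene of osteopontin, a secreted protein of bone matrix and of macrophages, held 0 UMIs in the 21 intact cells and 289 in 16 callus cells, or 407 CPM (361 to 456.5). Set against 3 UMIs in the intact library it was at least 14.0-fold higher. After thinning, *Spp1* was in 0% of intact and 13.5% of callus macrophages, 0.79% and 1.19% of B-lineage cells and 4.17% and 2.20% of monocytes. 1 cell held 42.9% of the callus *Spp1* UMIs. *Gpnmb*, a lysosomal glycoprotein gene (chromosome 6, 49036546 to 49070929, plus strand), held 1 intact UMI and 189 callus UMIs, in 5 cells, a log2 ratio of 4.78 (2.28 to 10.09), and the same cell held 49.7%. Both genes were thus restricted to a small number of callus cells, unlike *Trem2*.

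Genes of lipid handling were found in more cells. *Lpl*, lipoprotein lipase, was at 214 CPM (134 to 323) in 9 intact cells and 766 (703 to 833) in 62 callus cells, a log2 ratio of 1.84. *Fabp5*, a fatty acid binding protein gene, was at 58.3 and 525 CPM (3.17, in 4 and 39 cells). After thinning *Fabp5* was in 5% and 29.2% of macrophages, 3.57% and 6.27% of B-lineage cells and 20.8% and 28.1% of monocytes, so its intact share was near that of B-lineage cells. *Lipa*, the lysosomal acid lipase, was at 136 and 311 CPM (1.19, in 11 and 64 cells). *Lgals3*, galectin-3, was at 874 and 1789 CPM (1.03). *Cd9* and *Cd63*, tetraspanin genes, had log2 ratios of 1.28 and 1.08. Without the callus cells holding most *Elane* and most *Spp1*, *Lgals3*, *Cd9* and *Cd63* were within 2-fold, at 0.83, 0.85 and 0.82. With each cell weighted equally *Lgals3* (0.97), *Cd63* (0.78) and *Lipa* (0.89) were within 2-fold.

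3 counted members of the list were not past 2-fold. *Plin2*, which coats lipid droplets, was at 0.65 and *Abca1*, a cholesterol exporter, at 0.09 on the log2 scale. *Cd36*, a receptor for fatty acids and oxidised lipid, was lower in the callus, at 728 against 397 CPM (−0.88, −1.25 to −0.49), and at −1.05 with each cell weighted equally. The list summed to 3019 CPM in the intact and 6743 in the callus library, and per cell the median was 27.5 UMIs per 10000 (4.4 to 73.3) and 43.0 (6.5 to 517). For scale, its median ratio was −0.18 in monocytes and 0.45 in B-lineage cells of the same libraries.

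**Figure D3:**
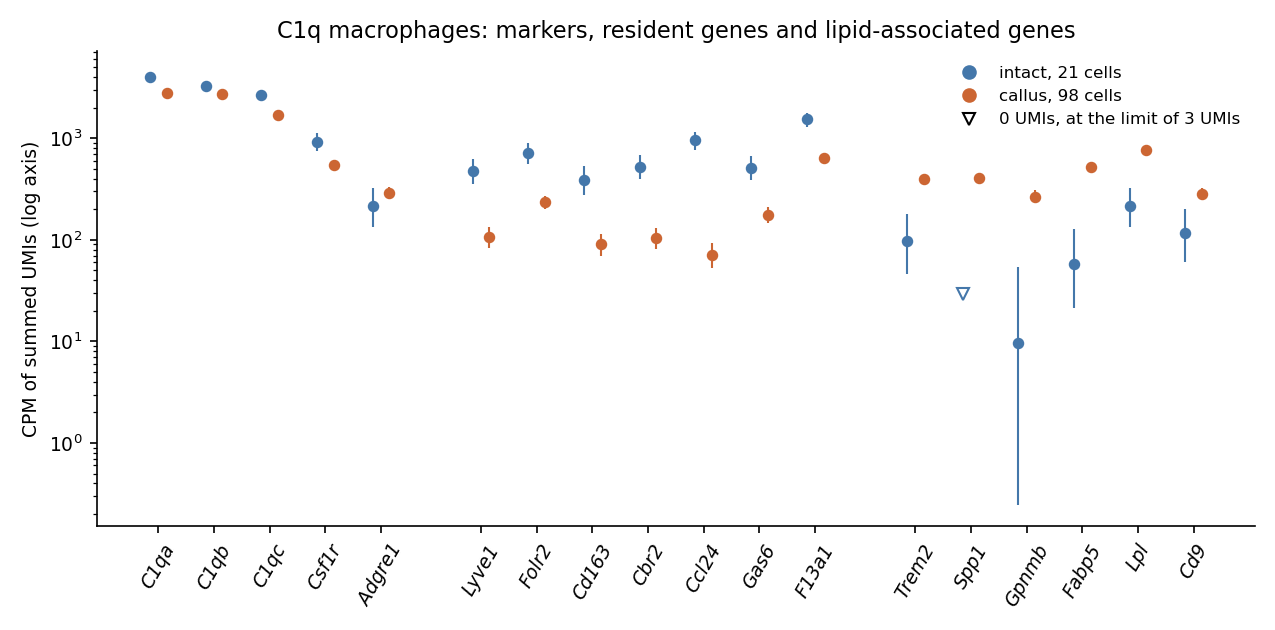
CPM of summed UMIs (log axis) of marker, resident and lipid-associated genes in the C1q macrophages of the intact library (21 cells, blue) and the callus library (98 cells, orange), with exact 95% Poisson intervals that cover counting error only. The 7 resident genes drawn, of 16 counted, are higher in intact cells (*Lyve1* 476 against 106 CPM). The 6 lipid-associated genes drawn, of 12 counted, are higher in callus cells (*Trem2* 97.1 against 394), and *Spp1*, with 0 intact UMIs, is drawn at the limit of 3 UMIs. The drawn genes were picked from the lists, and *Ccl8* and *Cd36*, which went the other way, are not drawn.

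The 2 groups of genes were carried partly by the same cells. After thinning, a UMI of *Lyve1*, *Folr2* or *Cd163* was found in 14 of 20 intact cells (70.0%, 45.7 to 88.1%) and 36 of 89 callus cells (40.4%, 30.2 to 51.4%). A UMI of *Trem2*, *Spp1* or *Gpnmb* was found in 2 of 20 (10.0%, 1.23 to 31.7%) and 44 of 89 (49.4%, 38.7 to 60.2%). Unthinned, the resident trio was found in 85.7% and 57.1% and the other trio in 33.3% and 64.3%. In B-lineage cells the thinned shares were at most 0.397% and 1.36%, and in monocytes 0% and 20.8% in the intact library and 0% and 15.4% in the callus. The lipid-associated trio was thus carried by a larger share of intact monocytes than of intact macrophages, within overlapping intervals (10.5 to 35.0% and 1.23 to 31.7%).

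In the intact library 12 cells carried the resident trio only, 0 the lipid-associated trio only, 2 both and 6 neither. In the callus 21 cells (23.6%) carried the resident trio only, 29 (32.6%) the lipid-associated trio only, 15 (16.9%) both and 24 (27.0%) neither. Cells with only lipid-associated genes were therefore seen, after thinning, in the callus library alone, although 0 of 20 intact cells allows a share of up to 15% by 3 cells of the total and 16.8% by the exact interval.

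**Figure D4:**
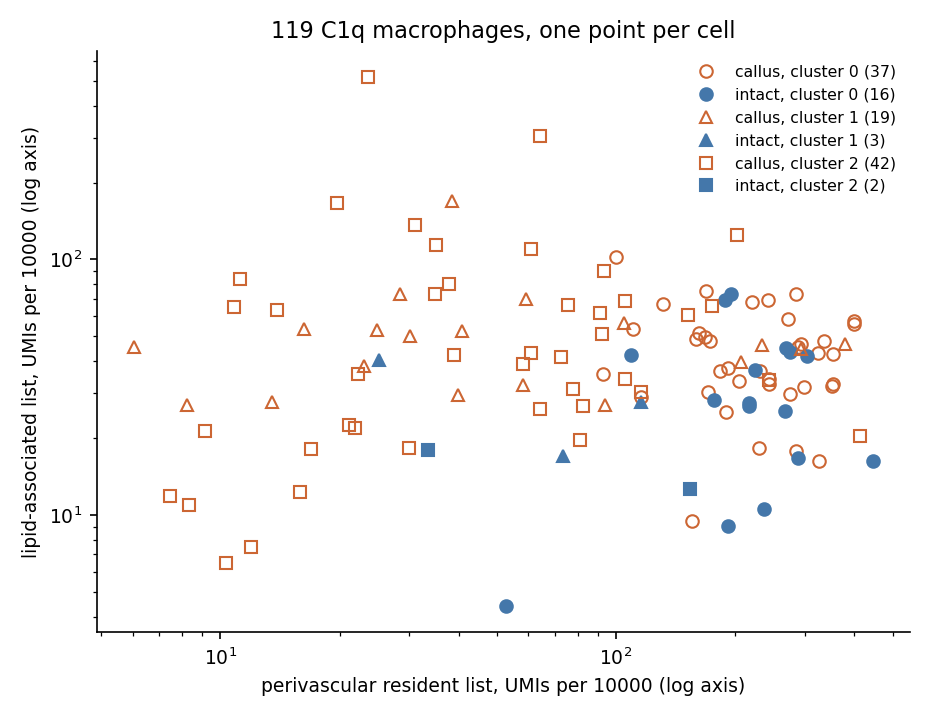
Each of the 119 C1q macrophages by its UMIs per 10000 of the perivascular resident list (x axis, log) and of the lipid-associated list (y axis, log), with intact cells filled and callus cells open, and the shape giving the cluster (0 is the *Lyve1* cluster, 1 the *Fn1* cluster, 2 the *C3* cluster). Most intact cells sit at the right, in the *Lyve1* cluster, among 37 callus cells of that cluster, and the 2 cells highest on the lipid-associated list are callus cells of cluster 2.

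Within the *Lyve1* cluster smaller shares of genes were past 2-fold. Of 329 genes counted there, 6 (1.82%) were at least 2-fold higher and 14 (4.26%) at least 2-fold lower in the 37 callus cells than in the 16 intact cells. Of the resident list 14 genes were counted, 1 higher and 2 lower, with a median of −0.22 beside 0.05 for all genes. The 3 lipid-associated genes counted had a median of 0.092 and none was past 2-fold, but most of that list, *Trem2* and *Lpl* included, had too few UMIs here to be counted. *Lyve1* was at 707 and 361 CPM (−0.97), *Folr2* at 1039 and 813 (−0.35) and *Adgre1* at 303 and 583 (0.94, 0.25 to 1.71).

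Several counted genes had a large ratio inside that cluster. *Ccl24* was at 1212 CPM in intact and 256 in callus cells of the cluster, a log2 ratio of −2.25 (−2.83 to −1.68), and *Retnla*, a secreted protein of alternatively activated macrophages, at 10520 and 2360 (−2.16, −2.34 to −1.97). In the *Fn1* cluster, which held 1715 of its 2076 callus UMIs, *Retnla* was at 10424 and 10396 CPM. *S100a6*, a calcium-binding protein gene, was at 5325 and 1685 CPM (−1.66). In the other direction *Ccl4*, a chemokine that attracts lymphocytes and monocytes, was at 144 and 1206 CPM (3.06, 2.15 to 4.15), *Ccl8* at 245 and 996 (2.02, 1.30 to 2.84) and *Apoe* at 9870 and 21794 (1.14, 1.02 to 1.26). Of the 106 genes higher over all cells, 0 were among the 6 counted as higher here, and 10 of the 72 lower genes were among the 14 lower here. Only 329 genes reached the minimum here, against 1222 over all cells. A gene could therefore be missing from these overlaps for too few UMIs alone. Genes under the minimum for counting, on 3 to 10 intact UMIs each, went both ways. *Fn1* was at 43.3 and 6.55 CPM, on 3 and 1 UMIs (−2.72, −8.44 to 0.92, against 2.98 over all cells). *Cd9* was at 86.6 and 32.8 CPM (1.28 over all cells), on 6 UMIs in 1 intact cell and 5 callus UMIs. The ratios of *Trem2*, *Lpl*, *Ms4a7* and *Cxcl16* were like those over all cells. *Trem2* was at 86.6 and 315 CPM (1.86, 0.63 to 3.38), *Lpl* at 144 and 511 (1.82, 0.87 to 2.94), *Ms4a7* at 144 and 446 (1.63, 0.66 to 2.75) and *Cxcl16* at 43.3 and 210 (2.28, 0.60 to 4.63).

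The lipid-associated genes of the callus were unevenly placed among the clusters, which were themselves made from expression, so this is a description. *Spp1* was at 662 CPM in callus cells of the *C3* cluster, 91.8 in the *Lyve1* cluster and 90.9 in the *Fn1* cluster. In the *C3* cluster 1 cell held 124 of its 260 callus UMIs. *Trem2* was at 540, 315 and 121 CPM in the same order. *Lpl* was at 682, 511 and 1200 CPM, and so was highest in the *Fn1* cluster.

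By single genes, the largest differences among those spread over enough cells, leaving out genes of the rule and of other cell types, were these. Higher in the callus were *Hebp1*, a haem-binding protein gene (1 and 123 UMIs, 4.16), *Rilpl2* (3.00), *Fn1*, fibronectin (126 and 998 CPM, 2.98), *Smc1a* (2.97), *Rgs1*, a regulator of G-protein signalling (146 and 788 CPM, 2.44), *Cxcl16* (2.27), the CD300 receptor genes *Cd300a* (2.06) and *Cd300c2* (2.00), *Trem2*, *Cx3cr1*, the fractalkine receptor (87.4 and 319.5 CPM, 1.87), *Lpl* and *Rab5if* (1.80). Lower were *Hspa1b* (−2.50), *Fgfr1*, a growth factor receptor gene (456 and 88.7 CPM, −2.36), *Hspa1a* (−2.06), *Retnla* (−1.66), *Egr1* (−1.65), *Folr2*, *Ap2a2* (−1.62), *Pmp22* (−1.58), *Gas6*, *Trib1* (−1.46) and *Slc38a2* (−1.44). 4 of the 12 higher genes had at most 4 intact UMIs, so their ratios have wide intervals, such as 1.65 to 9.47 for *Hebp1*. The share of cells with *Fn1* differed little, at 4 of 20 intact (20%) and 20 of 89 callus macrophages (22.5%) after thinning. Its higher callus level thus lay in the UMIs of the carrying cells. The 19 callus cells of the *Fn1* cluster held 557 of its 709 callus UMIs. With each cell weighted equally, *Ap2a2* (−0.88), *Pmp22* (−0.67) and *Gas6* (−0.71) were within 2-fold, and the other lower genes named here were past it.

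Some immediate-early and heat shock genes, which tissue digestion is known to induce, were lower in callus macrophages. Of 22 counted genes 0 were at least 2-fold higher and 8 at least 2-fold lower, with a median of −0.80, and the list summed to 37243 CPM in the intact and 21472 in the callus library. *Jun* was at 2553 and 1067 CPM (−1.26), *Klf4* at 1816 and 688 (−1.40), *Klf2* at 2573 and 1142 (−1.17), *Hspa1a* at 1194 and 286 (−2.06) and *Fos* at 4515 and 3408 (−0.41). *Gadd45b*, a stress response gene, and *Hsp90aa1*, a chaperone gene, were higher in the callus without reaching 2-fold, at 0.84 (0.02 to 1.78) and 0.59 (0.092 to 1.12). With each cell weighted equally 5 genes of the list were lower and 1, *Gadd45b* (1.20), higher, with *Jun* (−0.86), *Klf2* (−0.82) and *Fosb* (−0.68) within 2-fold. *Hspa1a* was carried by 95% of thinned intact cells and 28.1% of callus cells. In monocytes and B-lineage cells of the same libraries the list's median was 0.04 and 0.07, and within the *Lyve1* cluster it was 0.049 with 1 of 19 genes lower.

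In callus cells the median per cell was 431 UMIs per 10000 of this list in the *Lyve1* cluster, 139.5 in the *Fn1* cluster and 161 in the *C3* cluster, and in intact cells 510, 210 and 328.5. The list thus moved with the resident genes over the clusters, and its part in the lower resident genes was not tested.

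Class II antigen presentation genes differed little in summed level. Of 9 counted genes 0 were past 2-fold either way, the median was −0.10, and the list summed to 31592 and 29691 CPM. *H2-Aa*, a class II chain, was at 5311 (4875 to 5775) and 4938 CPM (4776 to 5104), and *Cd74* at 13029 and 11250. *Cd74* was in 15 of 21 and 90 of 98 cells, and after thinning in 70.0% (45.7 to 88.1%) and 87.6% (79.0 to 93.7%), with overlapping intervals, beside 6.25% and 22.3% of monocytes. The median per cell was 179 UMIs per 10000 (20.1 to 708) in the intact and 284 (5.4 to 926) in the callus library. Within the *Lyve1* cluster *Cd74* was at 7056 and 11084 CPM (0.65, 0.51 to 0.80) and *H2-Aa* at 3074 and 5394 (0.81, 0.59 to 1.04). The other clusters, with 3 and 2 intact cells, went the other way, with *Cd74* at 27719 and 13360 CPM in the *Fn1* cluster and 21126 and 10428 in the *C3* cluster, and *H2-Aa* at 10237 and 5158 and at 9344 and 4668.

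Complement genes include the C1q genes of the rule. *C1qa* was at 4049 CPM (3669 to 4456) and 2819 (2697 to 2946), *C1qb* at 3243 and 2707 and *C1qc* at 2641 and 1684, all used by the rule and given as a description. Of the 6 other counted genes 2 were at least 2-fold lower, *C4b* (−1.70) among them, and 0 were higher. *C3ar1*, the receptor for the C3a fragment, was at 291 and 190 CPM (−0.62, −1.20 to 0.01).

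Some receptors for uptake were lower in the callus, and their lists share genes with the resident list. Of 10 counted scavenger and lectin receptor genes 3 were lower (*Cd163*, *Stab1* and *Mgl2*), 0 higher, with a median of −0.83. Of 5 counted efferocytosis genes 2 were lower (*Gas6* and *Stab1*), 0 higher, with a median of −0.88, beside 5.89% lower of all genes. The other 7 and 3 genes were within 2-fold. With each cell weighted equally, *Gas6* (−0.71) and *Stab1* (−0.74) were within 2-fold too. In the *Lyve1* cluster, where 5 and 3 genes were counted, both medians were −0.092. *Mgl2*, a galactose-binding lectin, was at 1175 and 332 CPM (−1.82). *Axl*, a receptor for the *Gas6* product, held 2 and 94 UMIs and missed the minimum for counting. The 6 counted alternative activation genes had a median of −1.28, with *Retnla*, *Mgl2* and *Ccl24* lower and *Fn1* higher. *Retnla* was at 9243 CPM in 11 of 21 intact cells and 2922 in 24 of 98 callus cells, and 1 cell in each library held 19.2% and 27.4% of it.

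Lysosome genes were past 2-fold at about the share of all genes (8.67% higher). Of 21 counted lysosome genes 2 were higher, *Ctsd*, cathepsin D (573 and 1263 CPM, 1.14), and *Lipa*, 0 were lower, and the median was −0.08. With each cell weighted equally none of the 21 was past 2-fold. Of 7 iron and haem genes only *Cd163* was past 2-fold, lower, and the median was −0.27. The ferritin chains *Ftl1* (4000 and 6647 CPM, 0.73) and *Fth1* (5680 and 9159, 0.69) were higher in the callus without reaching 2-fold, and the list, of which *Fth1* holds most UMIs, summed to 12029 and 17686 CPM.

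Chemokines split. Of 14 counted chemokine and receptor genes 3 were higher in the callus, *Cxcl16*, *Cx3cr1* and *Cxcl2*, and 3 lower, *Ccl24*, *Ccl2* and *Ccl6*, with a median of −0.22. *Ccl2*, the main attractant of monocytes, was at 1388 (1170 to 1635) and 296 CPM (257 to 338), a log2 ratio of −2.23, and *Ccl6* at 2942 and 1140 (−1.37). *Cxcl16*, a membrane-bound chemokine and scavenger receptor, was at 48.5 and 234 CPM (2.27, 1.02 to 3.91), in 4 and 64 cells. *Cxcl2*, an attractant of neutrophils, was at 485 and 1115 CPM in 5 and 40 cells (1.20).

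Among 6 inflammatory mediators only *Il1b* was past 2-fold, at 87.4 and 232 CPM (1.41), in 1 intact and 16 callus cells. Of 10 growth factor and matrix genes *Spp1*, *Fn1*, *Mmp12* and *Gdf15* were higher, beside 8.67% of all genes, and 0 were lower, with a median of −0.03. 1 cell, the one with most *Spp1*, held 42.9% of callus *Spp1* and 75.8% of callus *Mmp12*. *Igf1*, the growth factor that macrophages are known to supply to healing muscle, was at 175 and 158 CPM (−0.15), and *Tgfb1* at 223 and 207 (−0.11).

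The remaining programmes were near the median of all genes or on few genes. Of 13 counted transcription factors *Irf8* (1.15) and *Nfe2l2* (1.00) were higher and *Klf4* and *Klf2* lower, with a median of −0.21. The macrophage identity list had a median of 0.33, with *Trem2*, *Cx3cr1* and *Ms4a7* (116.5 and 397 CPM, 1.77) higher and 0 of 18 lower. Fc receptors and innate sensors (8 genes, median 0.35) and glycolysis and hypoxia genes (6 genes, 0.29) had none past 2-fold. Of 5 interferon genes only *Ifi204* was lower (−1.04), with a median of −0.27.

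Monocyte genes were partly higher. Of 7 counted genes *Plac8*, *Fn1* and *Msrb1* were past 2-fold, 0 lower, with a median of 0.67, and the list summed to 1680 and 2856 CPM. *Ccr2* was at 456 and 472 CPM over all cells, at 418 and 138 in the *Lyve1* cluster, 467 and 1030 in the *Fn1* cluster and 650 and 367 in the *C3* cluster. Without the cell holding most *Elane*, 4 genes of the list were counted, 1 of them higher, and the median was −0.14, below 0.

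Marrow macrophages and osteoclasts were looked for by their own lists. Of the erythroblastic island list 5 genes were counted, with *Hebp1* higher, *Fcna* and *Cd163* lower and a median of −0.63. *Vcam1*, an adhesion gene of marrow macrophages, held 3 UMIs in 1 intact cell and 84 in 25 callus cells, and *Spic*, a factor of red pulp and marrow macrophages, 2 and 20 UMIs. Of the osteoclast list only *Ckb* was counted. The protease gene *Ctsk* held 0 UMIs in the intact library and 10 in 5 callus cells, while *Calcr*, *Oscar* and *Itgb3* were at 0. *Acp5*, the osteoclast phosphatase that macrophages also make, held 0 and 30 UMIs, in 18 callus cells of which 17 were in the *C3* cluster, at most 4 in a cell.

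Few macrophages carried proliferation genes. A UMI of any of 11 such genes was found after thinning in 10.0% of intact and 10.1% of callus macrophages (19.0% and 19.4% unthinned), against 25% and 45.2% of monocytes. *Mki67* was carried by 0% and 2.25% of thinned macrophages. *Tubb5* and *Pcna*, the only genes of this list that were counted, were within 2-fold.

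Genes of other cell types were low, but some moved with the libraries. The neutrophil list was at 301 CPM in the intact and 3688 in the callus macrophages, led by *S100a8*, with all 4 counted genes higher, and the cell with most *Elane* held 84.0% of the list in the callus. The muscle fibre list was at 233 and 1139 CPM, led by *Acta1*, with 5 of 5 counted genes higher and a median of 2.00, beside 2.05 in monocytes and 0.20 in B-lineage cells, and 1 cell held 36.5%. Of the erythroid list *Hbb-bs*, a haemoglobin chain, was lower (−2.68), and after thinning 90.0% of intact and 33.7% of callus macrophages carried it, as did 90.9% and 34.7% of B-lineage cells. The part of these transcripts in the results above was not tested.

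The lists of B-lineage (330 and 366 CPM), fibroblast (175 and 211), dendritic (359 and 424), osteoblast (9.71 and 35.2), endothelial (29.1 and 77.4), T and NK (0 and 146) and mast cell and basophil genes (0 and 22.5) were each at most 424 CPM. Of the platelet list only *Pf4*, which macrophages also make, was counted. *AY036118*, *Gm42418* and *Lars2*, whose counts can include reads of ribosomal RNA, were lower in the callus macrophages, at log2 ratios of −3.29, −1.12 and −1.50.

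With the callus cells holding most *Elane* and most *Spp1* left out, 74 genes were at least 2-fold higher and 59 lower of 1082 counted. The resident list then had 8 genes lower and a median of −1.07, and the lipid-associated list 5 higher, *Cd36* lower and a median of 0.85. *Lyve1* was at −2.00, *Folr2* at −1.45, *Ccl24* at −3.58, *Trem2* at 2.00, *Fabp5* at 2.85, *Lpl* at 1.78 and *Lipa* at 1.17. *Spp1* still held 165 callus UMIs, or 262 CPM, and 0 in the intact library. Without the 5 deepest callus and 2 deepest intact cells, which leaves out all 4 callus cells named above, the resident list had 9 genes lower and a median of −1.21, and the lipid-associated list 7 of 11 higher, 1 lower and a median of 1.07.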

How the data were processed

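Femoral tissue was digested, sorted for tdTomato and sequenced as 10x Chromium 3′ libraries, 1 per condition. The authors ran Cell Ranger (version 6.0.0, mm10) and deposited UMI counts per gene and called barcode, without normalization. The annotation version is not given in the sources used here. Of 32285 gene identifiers 32158 (99.6%) were in GENCODE vM21, which gave the gene positions.

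The members, gene lists and comparisons were chosen with earlier results of these data known. UMIs were summed over the macrophages of a library and scaled to 1000000 (CPM) with exact Poisson intervals. Ratios have exact conditional binomial intervals and shares Clopper-Pearson intervals (95%), which reflect counting only. A gene at 0 UMIs in a library was given the limit of 3 UMIs. The conditions, 1 library each, were compared without a test, and "counted" genes are those with at least 100 UMIs over both libraries. Cells were thinned to 2000 UMIs, which left out 1 intact and 9 callus macrophages. Clustering used 1500 variable genes, 20 components, 15 neighbours and Leiden resolution 0.5 in scanpy 1.11.5 (python 3.11.15). Reference monocytes had at most 1 C1q UMI and at least 2 *Ly6c2* and 1 *Ccr2* UMIs. Reference dendritic cells had at most 1 C1q UMI and at least 50 class II and 1 *Flt3* UMIs. B-lineage cells had at least 5 *Cd79a* and *Cd79b* UMIs and no *Csf1r* UMI, without a limit on C1q. The ratios and intervals were tried on counts simulated from the summed totals, with changes planted in genes with at least 300 UMIs. These counts had no spread between cells, so they cannot show how the intervals hold for uneven cells. Thinning was tried on the callus macrophages.

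Named genes are the markers, the 12 highest and 12 lowest ratios among counted genes carried by at least 10% of the macrophages of the higher library with no cell holding over 20% of UMIs there, the 15 highest over other cells, up to 4 genes with most UMIs of each list and those past 2-fold, and leading cluster genes. Of the 12 lowest, 1 is not reported here. Others named were chosen after their values were seen (*Mucl1* and the ribosomal RNA genes, the genes within the *Lyve1* cluster, and list members with few UMIs). Alternatives were other cell filters, count minimums, removal of high doublet scores, thinning, equal cell weights, centring and cluster settings. Leaving out the callus cells with most *Elane* and most *Spp1* and taking the *Lyve1* cluster alone were added after seeing the data.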

Additional observations from a re-analysis of the deposited data

How the results depend on the processing

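With 1 library per condition, every ratio carries counting error only, and condition, library, sort and makeup of the group cannot be told apart. The 21 intact macrophages limit precision. The number of macrophages was 19 to 22 in the intact and 82 to 103 in the callus library over the alternative selections. The median ratio of the perivascular resident list was below 0 and that of the lipid-associated list above 0 under every alternative run, from −1.40 to −0.22 and from 0.092 to 1.36, while that of class II genes had either sign (−0.22 to 0.63).

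The counts of genes at least 2-fold higher and lower depended on the minimum, at 793 and 416 with at least 20 UMIs and 31 and 25 with at least 300. With cells thinned to 2000 UMIs they were 20 and 13, the resident median was −0.64 and the class II median 0.19. Without the 5% deepest cells (2 intact and 5 callus) the class II median was 0.54. The causes were not tested, except that thinning leaves fewer genes to count. In the *Lyve1* cluster alone, chosen after seeing the data, the counts were 6 and 14, and the medians −0.22 (resident), 0.63 (class II), 0.092 (lipid-associated) and 0.049 (immediate-early and heat shock). *Fosb*, at −1.01 over all cells, was at 0.046 there. With each cell weighted equally, 96 genes were higher and 48 lower, the resident list had 6 lower and 1 higher (11 and 0 over summed UMIs) and the lipid-associated list 6 higher and 1 lower (9 and 0). Leiden resolution 1.0 gave 5 clusters, the one with most *Lyve1* holding 13 intact and 17 callus cells, all from the 53. No paired analysis was possible because each condition has 1 library.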
